A study of Mus musculus with 12 samples.

Results

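The libraries described here are the 6 libraries of GFP-low uterine cells, Stromal 1 to Stromal 6, out of 12 bulk RNA-seq libraries in the study. They are the columns of the deposited count table named Stromal, a rule that uses the labels and no measured value. The mice were female, of the strain Pdgfrb-BAC-eGFP, with a healthy uterus. They carry an enhanced green fluorescent protein driven from a bacterial artificial chromosome by the regulatory sequence of Pdgfrb, the beta receptor for platelet-derived growth factor. Per the series description the 12 mice were healthy and cycling. Mesenchymal cells were released from the uterus by enzymes and sorted by fluorescence. GFP-high cells were perivascular, GFP-low cells (GFPdim in the sample labels) were stromal fibroblasts, and the remaining 6 libraries hold both together. Those 6 libraries are not described here except in a check of a label. The labels used here give no age, cycle stage or number of cells, and do not tie a library to a mouse, so the spread given below is the spread between these libraries and may be partly technical.

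The endometrial stroma is the connective tissue that surrounds the glands and vessels of the uterine lining. Its fibroblasts secrete fibrillar collagens and the small proteoglycans that space collagen fibrils, respond to estrogen and progesterone through nuclear receptors, and exchange growth factor signals with the epithelium above them. In pregnancy they differentiate into the decidua, the maternal tissue that receives the embryo. A reporter driven by Pdgfrb marks both these fibroblasts and the pericytes and smooth muscle cells that wrap vessels, with the brighter signal in the perivascular cells.

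Abundance is given as TPM, the count of fragments of a gene divided by its summed exon length and scaled to the same total in each library, after the genes of chromosome MT were removed. Total counts ranged from 14339804 to 18425596 per library, and 8447077 to 10834905 of them were on nuclear genes. At this depth 3 counts on a gene of 2000 bases correspond to 0.597 to 0.776 TPM, and a gene of that length at 0 counts may lie anywhere below that level, for counting error alone. A single value given for a gene is its mean over the 6 libraries. All values after ± are standard deviations (SD) over the 6 libraries (n = 6), and no groups were compared, because the libraries form 1 group.

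1 library needs a caution before the results. The header of the Stromal 6 file names its input N8, whereas the headers of Stromal 1 to Stromal 5 name S1 to S5, and N is the letter of the libraries that hold all GFP-positive cells. The summed level of 10 pericyte markers was 28.9 TPM in Stromal 6 and 11.7 to 24.1 TPM in the other 5 libraries, against 1256 to 2396 TPM in the 6 libraries that also hold the perivascular cells. Rgs5, a pericyte marker, was at 17.6 TPM in Stromal 6, the highest of the 6 GFP-low libraries, whose lowest was 1.48 TPM and median 6.92 TPM. In the lowest of the libraries that also hold the perivascular cells it was at 941 TPM. The library keeps the name of its label, Stromal 6, and values are also given without it. The 30 most abundant protein-coding genes were the same 30 genes without Stromal 6, and their means were 0.904 to 1.06 times the means over 6 libraries.

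Not every high value belonged to a conventional gene. Places 2, 4 and 27 in the order of mean TPM were held by gene models of only 57 bases that are annotated as miRNA genes but have no name beyond a number. Their sequences, from the GENCODE M21 transcripts on GRCm38, are shown because they are near-identical copies, whose counts cannot be read as those of separate genes. The base at which they differ, position 11 counted from the 5′ end, is in capitals.
Gm23935: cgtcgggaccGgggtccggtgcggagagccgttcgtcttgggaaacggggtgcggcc
Gm24187: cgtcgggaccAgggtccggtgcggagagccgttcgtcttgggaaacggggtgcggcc
Gm24270: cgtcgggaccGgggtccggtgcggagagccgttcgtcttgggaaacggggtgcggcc
Gm23935 (chr16:11144125-11144181, plus strand) lies inside Zc3h7a on its opposite strand, and Gm24270 (chr9:56223715-56223771, minus strand) inside Peak1 on the same strand. Gm24187 (chr13:9834469-9834525, minus strand) differed from Gm23935 by G11A alone, and Gm24270 had the same 57 bases as Gm23935. A further model, Gm24245, holds those same bases and is not shown. Gm23935 had a mean of 1946 counts per library and, over 57 bases, a mean of 15364 ± 7382 TPM. Dio2 had 120682 counts over 5813 bases and a lower TPM. The 3 models shown ranged widely and together: each was lowest in Stromal 4, at 5168, 2342 and 548 TPM, and highest in Stromal 6, at 25113, 11177 and 3660 TPM.

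The other unnamed models near the top lay in a single gene. Sdk1 (chr5:141241490-142215586, plus strand), a cell adhesion protein of the immunoglobulin superfamily, was at 320 ± 82.2 TPM. Inside it lie 7 gene models, all on the opposite strand and all at 100 TPM or more, and 5 of them were among the 30 most abundant genes: Gm43708 at 5433 TPM, Gm43557 at 3308 TPM, Gm16036 at 2721 TPM, Gm16035 at 2296 TPM and Gm43556 at 2103 TPM. Fragments were counted without regard to strand, so fragments of these models and of introns of Sdk1 cannot be told apart. Models of the annotation class TEC, which await experimental evidence, numbered 668 at a mean of 10 TPM or more. Of these, 579 lay inside a protein-coding gene, 510 on its own strand and 69 on the opposite strand, as in Sdk1. Models below 10 TPM were not examined in this way.

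The order of abundance was led by a nuclear noncoding RNA, a hormone-activating enzyme and the proteins of the collagenous matrix. Malat1, a long noncoding RNA retained in the nucleus, held the first place in each of the 6 libraries with 29148 TPM at the lowest, 33129 at the median and 38462 at the highest. Of the 30 genes of highest mean TPM, 20 were protein-coding, 8 were models without a name and Xist, the RNA that coats the inactive X chromosome of female cells, was at 2483 ± 435 TPM.

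Dio2 (ENSMUSG00000007682, chr12:90724554-90738438, minus strand) was the most abundant protein-coding gene. It encodes type 2 iodothyronine deiodinase, which converts thyroxine to the active thyroid hormone inside cells. Its TPM was 9381 in Stromal 1, 11110 in Stromal 2, 9801 in Stromal 3, 10554 in Stromal 4, 7665 in Stromal 5 and 8509 in Stromal 6. It lay above Col1a1, the next coding gene by mean, in 5 of 6 libraries, with Stromal 6 as the exception. In Stromal 5 it lay below Dcn, which was at 8433 TPM.

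The chosen stromal markers all lay high. Dcn (decorin, which binds collagen fibrils) was at 3520, 5403, 5373, 7338, 8433 and 7705 TPM in Stromal 1 to 6, a mean of 6295 ± 1844 TPM. Stromal 1 was the lowest and Stromal 5 the highest. Col1a1 (ENSMUSG00000001506, chr11:94936224-94953042, plus strand), a chain of type I collagen, was at 4903, 6372, 6951, 6846, 7241 and 8827 TPM in the same order, again lowest in Stromal 1. Col3a1, the chain of type III collagen, varied less, between 4617 and 5960 TPM with a median of 5442 TPM. Lum (lumican, another collagen-binding proteoglycan) was between 1893 and 2506 TPM. Oxtr, the oxytocin receptor, through which oxytocin makes the uterus contract, was at 1095, 1746, 1774, 1570, 2070 and 2516 TPM and ranked 38 by its mean. Pdgfra, the alpha receptor for platelet-derived growth factor and a common fibroblast marker, was at 310 ± 19.9 TPM, with all libraries between 279 and 332 TPM. Pdgfrb, whose regulatory sequence drives the reporter, was at 89.7 ± 20.5 TPM and ranked 2328.

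The plot of the 30 most abundant coding genes shows how far the order holds from library to library. B2m, the light chain of class I antigen molecules, was at 5503 ± 1193 TPM, highest in Stromal 1 at 7064 TPM. Rpl4, a protein of the large ribosomal subunit, was at 4263 ± 464 TPM, Sparc, a collagen chaperone of the matrix, at 3943 ± 802 TPM, and Cd164, a sialomucin, at 3609 ± 824 TPM. Cdh11, a cadherin of mesenchymal cells, was at 2741 ± 423 TPM, lowest in Stromal 5. Nid1 (nidogen, which links laminin to type IV collagen in basement membranes) was at 3333 TPM in Stromal 1 and between 1377 and 1824 TPM in the other 5 libraries.

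**Figure D1:**
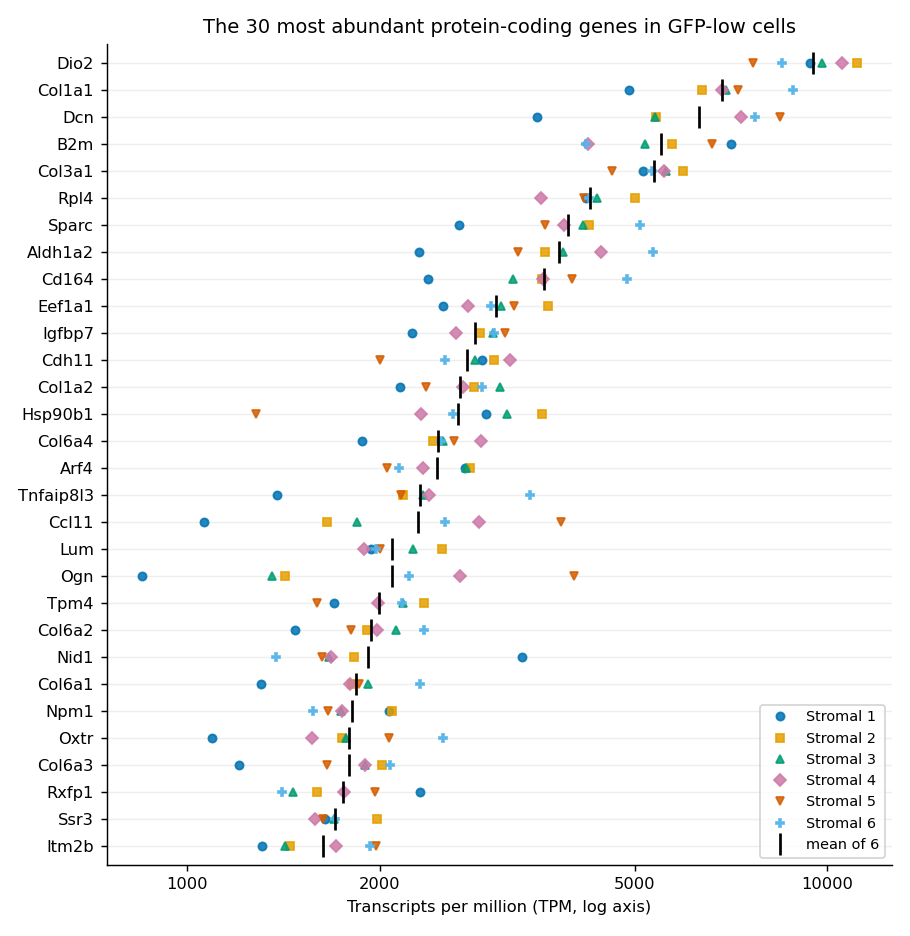
TPM on a log axis of the 30 protein-coding genes of highest mean TPM. Each symbol is 1 library and the black bar is the mean of 6. Dio2 leads at a mean of 9503 TPM, Stromal 1 lies lowest for Col1a1, Dcn, Sparc, Ccl11 and Ogn, and Stromal 5 lies lowest for Hsp90b1 and Cdh11.

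Of the coding genes, 6 were among the 10 most abundant in every library, 21 among the 30 most abundant in every library, and 65 among the 100 most abundant in every library. Neighbours in the order were seldom distinct: of 29 pairs of neighbours among the 30 coding genes, Col3a1 above Rpl4 was the only pair in the same order in all 6 libraries. The 100 most abundant genes of a library held 21.0% to 26.0% of its TPM, and it took 788 to 1050 genes to reach 50% of it. In all, 12604 genes were at 1 TPM or more in every library, 9934 of them protein-coding, and 2066 were at a mean of 100 TPM or more.

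Among the 6 nuclear gene classes examined, collagens took the largest share of counts. The 44 collagen genes held 5.07 ± 0.585% of the nuclear counts, from 4.02% in Stromal 1 to 5.75% in Stromal 6. As a background for the lists that follow, the median over 21684 protein-coding genes was 2.93 TPM, and 7.57% of them reached a mean of 100 TPM. In a list of 32 collagens the median was 53.9 TPM and 14 reached 100 TPM. The list does not hold Col24a1, at 174.5 ± 60.4 TPM, or Col10a1, at 34.3 ± 8.80 TPM. Type I and type III collagen form the fibrils, and Col1a2, the partner chain of Col1a1, was at 2667 ± 348 TPM. Type VI collagen forms beaded filaments around cells, and 4 of its chains were next: Col6a4 at 2466 ± 331 TPM, Col6a2 at 1940 ± 296 TPM, Col6a1 at 1835 ± 323 TPM and Col6a3 at 1792 ± 322 TPM. Type V collagen, which limits the width of type I fibrils, was represented by Col5a1 at 461 ± 87.1 TPM and Col5a2 at 437 ± 63.2 TPM. Basement membrane collagen was lower, with Col4a2 at 367 ± 48.9 TPM, Col4a3 at 275 ± 97.2 TPM and Col4a1 at 266 ± 47.7 TPM. Col4a3 was highest in Stromal 5, at 430 TPM, and lowest in Stromal 1, at 149 TPM.

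**Figure D2:**
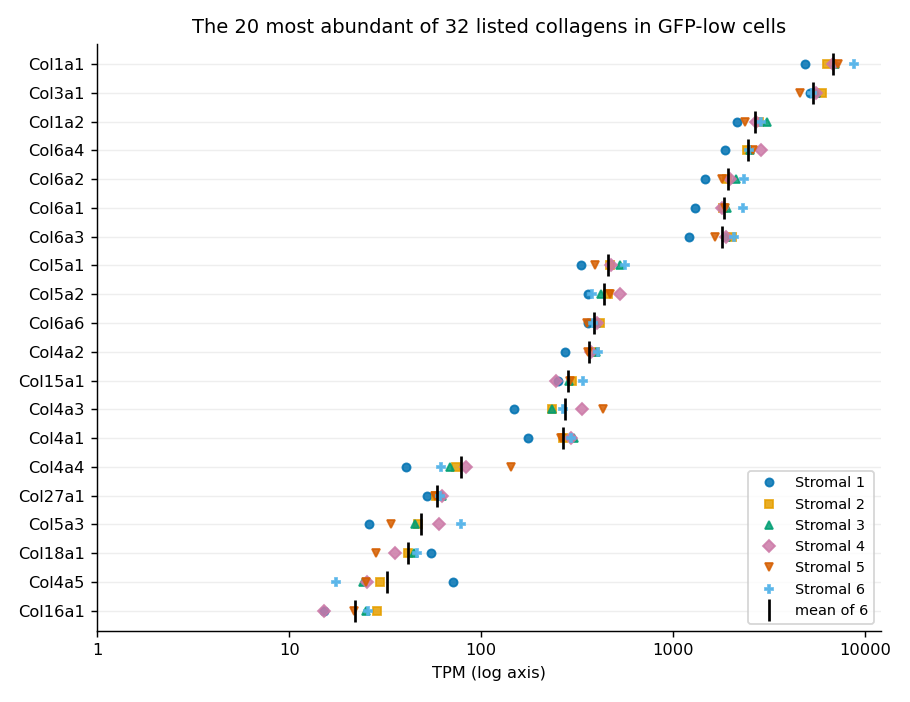
TPM on a log axis of the 20 most abundant of 32 listed collagens, 1 symbol per library and a black bar for the mean of 6. Levels fall from 6857 TPM for Col1a1 to 21.9 TPM for Col16a1, and Stromal 1 lies lowest for 14 of the 21 listed collagens at a mean of 20 TPM or more.

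Among the enzymes and chaperones that modify and cross-link collagen, 12 of 20 reached 100 TPM. Plod2, a lysyl hydroxylase, was at 1106 ± 184 TPM, and Lox, the lysyl oxidase that starts the cross-links of collagen and elastin, at 665 ± 217 TPM, with 288 TPM in Stromal 1 and 579 to 869 TPM elsewhere. Serpinh1, the collagen chaperone of the endoplasmic reticulum, was at 387 ± 124 TPM and lowest in Stromal 5, at 209 TPM. Ppib, a prolyl isomerase at 103 TPM, shares 54.2% of its exonic bases with Snx22 and its value is uncertain to that extent.

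The small leucine-rich proteoglycans summed to 6915 TPM in Stromal 1 and 15348 TPM in Stromal 5, with a median of 11322 TPM. Beside Dcn and Lum, Ogn (osteoglycin) was at 853, 1425, 1358, 2674, 4021 and 2223 TPM in Stromal 1 to 6, so that Stromal 1 was lowest and Stromal 5 highest, as for Dcn. Bgn (biglycan) was steadier, at 494 ± 52.0 TPM. Fmod, Kera and Epyc, members of the family known from tendon, cornea and cartilage, were at 0.771, 0.0340 and 0 TPM.

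Elastic fibre genes were present at moderate levels, with 8 of 15 at 100 TPM or more. Mfap4 was at 754 ± 133 TPM. Fbn1, fibrillin 1, the scaffold of the fibre, was at 614 ± 138 TPM, with 353 TPM in Stromal 1 and 595 to 729 TPM in the other 5. Mfap5 was at 393 ± 51.1 TPM and Fbln2 at 379 ± 159 TPM, and both were lowest in Stromal 1. Eln, elastin itself, was at 115 ± 37.3 TPM. Adhesive glycoproteins were led by Fn1 (fibronectin) at 928 ± 170 TPM, Spon1 at 875 ± 177 TPM and Vcan (versican, a large proteoglycan) at 674 ± 149 TPM. Several matricellular genes were at low levels: Postn was at 32.1 ± 15.4 TPM, Tnc at 13.9 TPM and Ccn2 at 1.96 TPM. The level of Tnc, tenascin C, rested on Stromal 1, at 69.9 TPM against 1.13 to 4.14 TPM in the other 5.

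Of the matrix proteases and inhibitors, 8 of 25 reached 100 TPM. Ctsl, a lysosomal cysteine protease, was at 596 ± 138 TPM, Timp2, an inhibitor of matrix metalloproteinases, at 554 ± 112 TPM and Adamts1 at 456 ± 123 TPM. Mmp2, a gelatinase, was at 154 ± 54.2 TPM, whereas Mmp3 was at 0.351 TPM and Mmp9 at 0. Stromal 6 was highest for 10 of 18 members at 20 TPM or more, compared with 15.8% of all 5858 coding genes at that level.

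Secreted signals of the stroma were led by Igfbp7, a binding protein of the insulin-like growth factor family, at 2817 ± 330 TPM. Igf1, the growth factor through which estrogen-treated stroma acts on the epithelium, was at 1338 ± 183 TPM, and its lowest and highest libraries were at 1097 and 1558 TPM. Igfbp5 was at 613 ± 163 TPM. Igf2 was at 0.433 TPM. Among other growth factors, Vegfa was at 323 ± 41.7 TPM, Fgf2 at 284 ± 102 TPM, Inhba, a subunit of activin, at 200 ± 80.6 TPM and Bmp7 at 122 ± 47.8 TPM. Fgf10 and Fgf7, which signal to the epithelium, were at 52.5 ± 13.2 and 43.3 ± 11.9 TPM, and Bmp2, a signal of early decidualization, at 26.9 ± 14.2 TPM. Their receptors included Tgfbr2 at 354 ± 68.0 TPM and Egfr at 259 ± 49.2 TPM.

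Ccl11 (eotaxin, which attracts eosinophils) supplied 87.9% of the summed TPM of 23 chemokines and cytokines. It was at 1063, 1653, 1847, 2855, 3836 and 2532 TPM in Stromal 1 to 6, so that Stromal 1 was lowest and Stromal 5 highest. Ccl7 followed at 121 ± 44.2 TPM and Csf1, the macrophage growth factor, at 48.2 ± 16.6 TPM. Il6 was at 0.0311 TPM and Cxcl13 at 0. Of 15 complement genes, 4 reached 100 TPM, compared with 7.57% of protein-coding genes. The median member was at 4.01 TPM, against 2.93 TPM over protein-coding genes. Cd55, which dissociates complement convertases, was at 815 ± 165 TPM. C1s1, a protease of the C1 complex, was at 471 ± 75.8 TPM and Serping1, the C1 inhibitor, at 331 ± 71.2 TPM. C3 was at 51.5 ± 46.4 TPM, with 145 TPM in Stromal 3 and 21.2 to 45.1 TPM in the others, and its mean was 32.8 TPM without Stromal 3.

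Most of the summed RNA of the listed retinoid genes was that of an enzyme of synthesis. Aldh1a2, the dehydrogenase that makes retinoic acid, was at 2301, 3623, 3865, 4439, 3293 and 5348 TPM in Stromal 1 to 6 and supplied 84.7% of the summed TPM of 16 retinoid genes. Aldh1a1, a related dehydrogenase, was at 436 ± 197 TPM, and both were lowest in Stromal 1 and highest in Stromal 6. Cyp26b1, which breaks retinoic acid down, was at 18.9 TPM, Rara, a retinoic acid receptor, at 17.8 TPM and Cyp26a1 at 0.

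The main receptors for ovarian steroids were abundant in all 6 libraries. Pgr, the progesterone receptor, was at 1034, 1050, 1021, 1198, 1206 and 848 TPM in Stromal 1 to 6, a mean of 1060 ± 132 TPM. Esr1, the main estrogen receptor of the uterus, was at 278 ± 60.9 TPM with a highest value of 383.5 TPM in Stromal 1 and a lowest of 203 TPM in Stromal 6. Nr3c1, the glucocorticoid receptor, was at 41.7 ± 11.4 TPM, and Esr2, the second estrogen receptor, at 0.115 TPM. Greb1, a target of estrogen and progesterone receptors, was at 113 ± 20.9 TPM. The 17 genes of the list summed to 2103 to 2659 TPM.

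The relaxin and oxytocin receptors both lay among the 40 most abundant genes. Rxfp1, the receptor for relaxin, a hormone that softens the reproductive tract, ranked 40, at 1751 ± 341 TPM, and was highest in Stromal 1, at 2313 TPM, where Oxtr was lowest, at 1095 TPM. Oxtr gave 69.9% of the summed TPM of a list of 24 G-protein coupled receptors and signalling genes, which does not hold Rxfp1. Lpar1, a lysophosphatidic acid receptor, was at 390 ± 66.3 TPM and S1pr1, a sphingosine phosphate receptor, at 87.5 ± 45.2 TPM. Ptgs1 and Ptgs2, the cyclooxygenases that start prostaglandin synthesis, were at 1.65 and 2.50 TPM. Hpgd, the enzyme that breaks prostaglandins down, was at 105 ± 23.4 TPM.

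Of 32 transcription factors of the uterine mesenchyme, 12 reached 100 TPM. Osr2 was at 585 ± 213 TPM, Zeb2 at 581 ± 40.5 TPM and Tcf4 at 465 ± 68.9 TPM. Factors of the Hox clusters that pattern the female tract along its length were led by Hoxd11 at 192 ± 63.2 TPM and Hoxd10 at 142 ± 65.7 TPM. Hoxa10 and Hoxa11, which the uterus needs for implantation, were at 51.7 ± 18.9 and 34.1 ± 17.2 TPM, and Hoxa11, which shares 35.0% of its exonic bases with Hoxa11os, was lowest in Stromal 5, at 9.05 TPM. Hand2, through which progesterone acts on stromal growth factors, was at 26.2 ± 7.99 TPM and shares 19.8% of its exonic bases with another gene. Emx2 and Wt1, factors of the embryonic urogenital ridge, were at 109 ± 26.9 and 104 ± 17.1 TPM, and Foxo1, a decidual factor, was at 97.6 ± 36.6 TPM. Stromal 1 was highest for 11 of 21 members at 20 TPM or more, compared with 23.8% of all coding genes at that level.

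The cytoskeleton list was present in full, with all 25 genes at 1 TPM or more in every library and 12 at a mean of 100 TPM or more. Tpm4, a tropomyosin of nonmuscle cells, was at 1996 ± 293 TPM. Vim (vimentin, the intermediate filament of mesenchymal cells) was at 714, 944, 738, 1179, 1502 and 1610 TPM in Stromal 1 to 6, and Stromal 1 and Stromal 3 were the lowest. Cald1 (caldesmon) was at 1112 ± 162 TPM and Actb (cytoplasmic actin) at 608 ± 169 TPM. Thy1, a surface glycoprotein of many fibroblasts, was at 124 ± 44.8 TPM, with 53.1 TPM in Stromal 5 and 95.3 to 183 TPM in the others.

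Of 21 interferon and class I antigen genes, B2m supplied 77.7% of the summed TPM. H2-K1, a class I heavy chain, was at 383 ± 51.5 TPM, with 279.7 TPM in Stromal 4 and 395 to 422 TPM in the others. H2-D1, another heavy chain, was at 119 ± 29.3 TPM and was also lowest in Stromal 4, at 68.1 TPM. Near-identical class I genes can share fragments, so the division between them is uncertain. Ifitm3, an antiviral membrane protein, was at 556 TPM in Stromal 6 and 274 to 361 TPM in the others. Isg15, a standard interferon target, was at 0.494 TPM.

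Among long noncoding RNAs, Malat1 supplied 87.4% of the summed TPM of 16 genes. Gas5, the host of many small nucleolar RNAs, was at 914 ± 178 TPM, of whose exonic bases 17.8% are shared with other genes. Neat1, the scaffold of nuclear paraspeckles, was at 465 ± 96.4 TPM, and Airn, the imprinted antisense RNA of Igf2r, at 291 ± 45.5 TPM. H19, an imprinted RNA of fetal tissues, was at 0. Genes of iron storage and oxidative defence were led by Fth1, the ferritin heavy chain, at 829 ± 134 TPM, Selenop, a selenium carrier, at 320 ± 44.1 TPM and Sod1, a superoxide dismutase, at 274 ± 49.8 TPM.

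Early response genes were well represented. Egr1, an early gene induced rapidly by growth factors, was at 973 ± 159 TPM. Jun was at 258, 391, 212, 311, 765 and 619 TPM, and Fos at 287, 236, 125, 271, 588 and 573 TPM in Stromal 1 to 6, so that Stromal 5 and Stromal 6 lay above the other 4 for both. The list of 21 immediate early genes summed to 1897 TPM in Stromal 3, the lowest, and to 4274 TPM in Stromal 6, the highest.

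The share of counts by gene class gives the same libraries from another side. Of the nuclear counts, 88.0 ± 1.01% were on protein-coding genes, 7.11 ± 0.720% on long intergenic noncoding RNAs and 2.26 ± 0.310% on TEC models. Annotated miRNA genes had 0.0736% of the counts but, through their short lengths, 4.51% of the TPM. Proteins of the cytosolic ribosome, 87 genes, took 0.649 ± 0.0631% of the nuclear counts, with a median member at 104 TPM. Rpl4 stood apart from the rest of that class, since the second gene, Rps3a1, was at 960 ± 156 TPM. Genes with the Eef and Eif symbols of translation factors, led by Eef1a1 at 3039 ± 398 TPM, took 1.00 ± 0.0896%. Nuclear genes with symbols of oxidative phosphorylation subunits took 0.276 ± 0.0397% and were led by Atp5b, the catalytic subunit of ATP synthase, at 843 ± 227 TPM. Proteasome subunits took 0.126% and histones 0.0308%. Gapdh, a glycolytic enzyme often used as a reference, was at 118 ± 26.7 TPM and ranked 1708.

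Mitochondrial RNA was a large share of what was sequenced. The chromosome MT genes took 39.6, 35.1, 37.7, 45.7, 44.5 and 37.6% of all counts in Stromal 1 to 6. Most of this was ribosomal: mt-Rnr2 took 25.5 ± 2.93% and mt-Rnr1 7.27 ± 1.02%, and the other 35 genes took 5.80% to 9.70%. The first protein-coding member was mt-Co1, a subunit of cytochrome c oxidase, at 1.79 ± 0.254%. Other subunit genes were nearly or wholly without counts: mt-Co2 was at 1.13e-05%, mt-Atp6 at 1.38e-05%, and mt-Co3 and mt-Atp8 at 0. Fragments under a mapping quality of 10 were not counted, and the part of this in these values was not tested. The order and shares are therefore those of counted fragments and may not be those of the RNA.

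Markers of other cell types were low beside those of fibroblasts. The 6 stromal fibroblast markers summed to 22720 ± 3296 TPM, with 16889 TPM in Stromal 1 and 26646 TPM in Stromal 6, and 21934 TPM on average without Stromal 6. In bulk libraries fewer cells of a type and less RNA per cell cannot be told apart. The 10 pericyte markers summed to 18.5 ± 6.91 TPM, and 16.5 TPM without Stromal 6. Higd1b was at 0 counts in all 6 libraries, Cspg4, the proteoglycan NG2, at 0.503 TPM, and Notch3 at 2.62 TPM.

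Smooth muscle markers summed to 213 to 309 TPM, but Synpo2, an actin-binding protein, gave 68.6% of this. Acta2, smooth muscle actin, was at 2.59, 6.39, 2.43, 5.34, 5.81 and 21.2 TPM in Stromal 1 to 6, and Stromal 6 lay above the other 5. Myh11, the smooth muscle myosin, was also highest in Stromal 6, at 10.03 TPM, against 0.386 to 5.70 TPM in the others. Cnn1, Myocd and Lmod1 were at means below 1 TPM. Without Stromal 6 the list summed to 234 TPM on average. The part of smooth muscle or perivascular cells in any value of Stromal 6 was not tested.

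**Figure D3:**
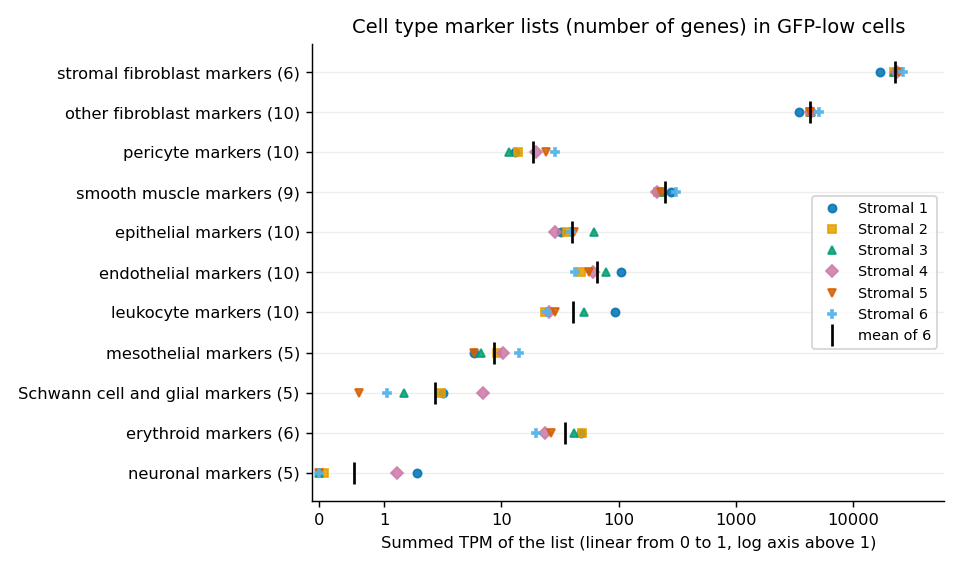
Summed TPM of 11 cell type marker lists, on an axis that is linear from 0 to 1 and logarithmic above 1, with 1 symbol per library and a black bar for the mean of 6. The fibroblast lists lie between 3481 and 26646 TPM, and each other list lies at or below 309 TPM in every library.

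Endothelial markers summed to 42.8 to 105.5 TPM. Cdh5, the cadherin of endothelial junctions, gave 31.5 ± 27.1 TPM of this and was highest in Stromal 1, at 80.4 TPM, whereas Pecam1 was at 0.219 TPM, Vwf at 0.127 TPM and Cldn5 at 0 counts in all 6 libraries. Leukocyte markers summed to 23.6 to 93.5 TPM, of which Cd68, a lysosomal protein of macrophages, gave 83.9%. Ptprc, the surface protein CD45 of leukocytes, was at 0.0422 TPM, Nkg7 and C1qa at 0 counts, and Lyz2, the lysozyme of myeloid cells, was at 12.1 TPM in Stromal 1 and 0 in the other 5 libraries. Stromal 1 had the highest sum for both lists. Itgam, at 2.26 TPM, shares 68.7% of its exonic bases with Gm49368.

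Epithelial markers summed to 28.5 to 61.3 TPM, with Epcam at 7.30 TPM and Cdh1, the epithelial cadherin, at 5.49 TPM. Ltf, lactotransferrin, which the uterine epithelium secretes under estrogen, was at 25.2 TPM in Stromal 3 and 1.48 to 11.8 TPM in the others, and Stromal 3 had the highest sum. The mesothelial list rested on Krt19 (5.79 to 14.2 TPM), with Msln, Upk3b and Lrrn4 at 0 counts. Schwann cell markers summed to 0.618 to 7.03 TPM and neuronal markers to 0 to 1.91 TPM. The 5 haemoglobin and glycophorin genes of the erythroid list were at 0 counts in all 6 libraries. Near-identical haemoglobin genes can lose their shared fragments at a mapping quality of at least 10, so their zeros do not show that their RNA was absent. The only member of the list with counts was Alas2, a haem synthesis enzyme at 34.7 ± 13.1 TPM. It shares 15.5% of its exonic bases with Apex2.

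No pair of libraries looked like 1 library deposited in duplicate. Between pairs of libraries the Spearman correlation of counts across genes was 0.881 to 0.908. A chi-square statistic of the counts, divided by its degrees of freedom, lay between 24.7 and 62.7, and separate samples are bound to exceed counting error on this measure. Over 10950 genes at a mean of 10 TPM or more, the median SD of log2(TPM + 1) was 0.48, and counting alone would give a median of 0.10. The square root of the common dispersion, the biological coefficient of variation of edgeR, was 0.398 over 11315 genes.

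The spread narrowed with abundance. Over protein-coding genes at 10 to 30 TPM the median SD was 0.55, at 30 to 100 TPM it was 0.36, at 100 to 1000 TPM it was 0.27 and at 1000 TPM or more it was 0.25. For the most abundant class, counting alone would give 0.01.

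**Figure D4:**
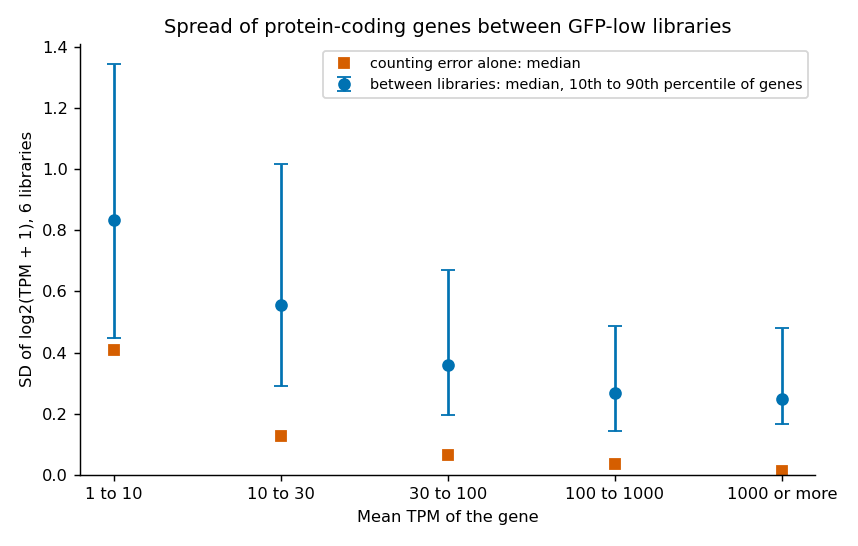
SD of log2(TPM + 1) over the 6 libraries for protein-coding genes grouped by mean TPM. Blue points are the median with lines from the 10th to the 90th percentile of genes, and orange squares are the median that counting error alone would give. The spread between libraries lies above counting error in every class, at 0.25 against 0.01 for genes at 1000 TPM or more.

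The 10 steadiest genes at a mean of 20 TPM or more had varied functions. Crebbp, a histone acetyltransferase, was between 135 and 148 TPM, an SD of 0.05 on the log2 scale. Dlat, a subunit of pyruvate dehydrogenase, was between 116 and 129 TPM, Sptbn1 (spectrin) between 209 and 234 TPM, and Ufl1, a ligase of the ubiquitin-like protein UFM1, between 205 and 227 TPM. Rab12, Nedd4, Stag1, Pkd2, Ube2j1 and Usp15 completed the 10 genes of smallest spread, and the highest SD among the 10 was 0.07. Nedd4, a ubiquitin ligase, combined this with a high level, 955 ± 41.4 TPM.

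At the other end, the 15 genes of largest spread were all under 300 bases and none was protein-coding. They were led by n-R5s159, a model of 5S ribosomal RNA, at 1736 TPM in Stromal 1, 181 TPM in Stromal 5 and 41.5 TPM or less in the others. Mir6394 was at 575 TPM in Stromal 5 and at 0 in Stromal 1 and Stromal 6, from a mean of 25.3 counts. Among protein-coding genes, ranked after those values were seen, Wfdc1, Mgp (matrix Gla protein, an inhibitor of calcification) and Ano1 (a calcium-activated chloride channel of pacemaker and epithelial cells) had the largest spread, and Stromal 1 was the highest library for all 3.

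Single libraries stood apart on each of the first 3 principal components. In a principal component analysis of log2(TPM + 1), the first component held 31.0% of the variance and placed Stromal 5 at 103, with the other 5 between -37.7 and -7.89. The second held 22.4% and placed Stromal 1 at 80.4, with the others between -41.4 and 14.1. The next held 18.9% and placed Stromal 2 at 74.7, with the others between -44.0 and 6.48. Over 5858 coding genes at a mean of 20 TPM or more, Stromal 5 was the lowest library for 28.8%, and for 138 genes it lay more than 2-fold below the next library. Stromal 1 lay more than 2-fold above the next library for 54 genes.

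The 24 genes of hedgehog and Wnt signalling summed to 2094 TPM in Stromal 1 and to 1005 to 1411 TPM in the other 5. Ptch1, given below, is part of that sum. Of 14 members at 20 TPM or more, 6 were highest and 2 lowest in Stromal 1, where 23.8% of all coding genes at that level were highest. Wnt5a, a noncanonical Wnt ligand, was the most abundant member at 406 ± 65.6 TPM and was not highest there. Ptch1, the hedgehog receptor and a target of the pathway itself, was at 410, 40.5, 44.9, 33.3, 52.4 and 20.8 TPM in Stromal 1 to 6. Its mean of 100.4 TPM rests on that library and was 38.4 TPM without it. Gli2, a transcription factor of the pathway, was at 39.0 ± 7.78 TPM. Sfrp2, a secreted Wnt modulator that shares 16.1% of its exonic bases with Gm26771, was at 374 TPM in Stromal 1 and 19.1 to 58.6 TPM in the others, and Pappa, a protease that cleaves insulin-like growth factor binding proteins, was at 175 TPM in Stromal 1 and 15.6 to 29.98 TPM in the others. Thbs1, thrombospondin, was at 252 TPM in Stromal 1 and 51.0 to 60.0 TPM elsewhere. The genes outside the hedgehog and Wnt list were picked after their values were seen.

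Collagen and elastic fibre genes were often lowest in Stromal 1, though not they alone. It was the lowest library for 14 of 21 collagens, 7 of 10 elastic fibre genes and 9 of 18 genes of collagen processing. These counts are of genes at a mean of 20 TPM or more, where it was the lowest for 16.4% of all coding genes. Stromal 5 was the lowest for Col3a1 and for 8 of the same 18 genes of collagen processing, compared with 28.8% of all coding genes. Stromal 1 was also the lowest for 10 of 23 cytoskeleton genes and for 8 of 18 matrix proteases and inhibitors at that level. Among adhesive and matricellular glycoproteins it was the lowest for 3 of 11 and the highest for 5, and Nid1, Thbs1 and Tnc were highest there. The sums of the leukocyte and endothelial lists were highest in the same library, as given above. Over all libraries Cd68 gave 83.9% of the leukocyte sum and Cdh5 48.3% of the endothelial sum. Only 1 member of each list was at a mean of 20 TPM or more. The part of such cells in these values was not tested.

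Chaperones were low in Stromal 5. Hsp90b1, the endoplasmic reticulum member of the HSP90 family, which shares 15.7% of its exonic bases with 1810014B01Rik, was at 2936, 3586, 3164, 2319, 1283 and 2604 TPM in Stromal 1 to 6. Stromal 5 was the lowest library for 13 of 17 chaperones and heat shock genes at 20 TPM or more, against 28.8% of all coding genes. The list of 18 summed to 4987 TPM in Stromal 5 and to 8462 to 11108 TPM in the other 5. Stromal 5 also had the fewest nuclear counts, 8447077, and the fewest genes with a count, 18209, and the part of depth in these values was not tested. Sfrp4, a relative of Sfrp2, was highest in Stromal 5, at 248 TPM against 5.76 to 70.3 TPM, and Ogn, Ccl11 and Dcn were highest there too.

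A few genes lay above the other libraries in Stromal 6. Hspa5, the chaperone BiP, was at 1981 TPM in Stromal 6 and 530 to 1056 TPM in the others. Creld2 was at 186 TPM against 21.6 to 79.3 TPM, and Ddit3, the transcription factor CHOP, at 107 TPM against 46.5 TPM in the next library. Stromal 6 was the highest library for 2 of 17 chaperones at 20 TPM or more, and Hsp90b1 was not among them. Creld2 and Ddit3 were picked after their values were seen.

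**Figure D5:**
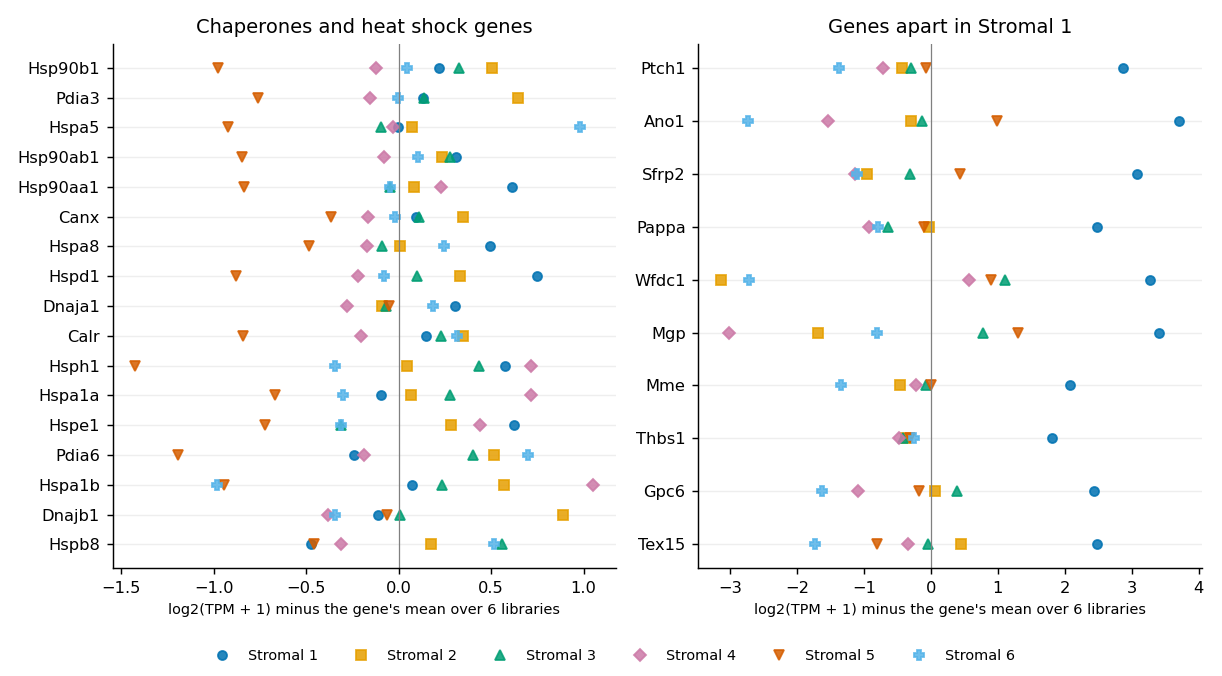
Log2(TPM + 1) minus the mean of each gene over 6 libraries, 1 symbol per library, for 17 chaperones and heat shock genes (left) and for the 10 coding genes that lay farthest above the next library in Stromal 1 (right, chosen by that distance). Stromal 5 lies at the left end for 13 of the 17 chaperones, and Stromal 1 lies at the right end for each of the 10 genes.

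The 22 cell cycle genes had a median of 4.70 TPM, against 2.93 TPM over protein-coding genes. Of them, 10 were at 1 TPM or more in every library, compared with 45.8% of protein-coding genes. Mki67, a protein of cycling cells, was at 47.5 ± 19.5 TPM, highest in Stromal 4 at 83.8 TPM. Top2a was at 14.2 TPM and Cdk1 at 3.90 TPM, whereas Cdkn1b, an inhibitor of the cycle, was at 69.8 ± 16.2 TPM. None of the 22 cell cycle genes reached a mean of 100 TPM, compared with 7.57% of protein-coding genes, and the list summed to 215 to 333 TPM.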

How the data were processed

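RNA-seq libraries were made from GFP-low cells sorted from uteri of Pdgfrb-BAC-eGFP mice. The authors deposited raw counts per gene. Per the file headers, these counts are fragments of read pairs over exons, summed by gene identifier of Ensembl 84 (GRCm38) with featureCounts 1.6.4 at a mapping quality of at least 10 and with strand not used. The Length column of these files, the summed exon bases of a gene per the file headers, was used as deposited. The submitters' processing notes also list cutadapt and SAMtools, and an aligner was not given in the sources used here. The labels name a DNA library kit for this RNA, which was not resolved. The 6 columns of the series table equalled the 6 single files. Of 47729 genes, 47224 were given a symbol by identifier and 47310 a gene type.

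After removal of the 37 genes of chromosome MT, counts were divided by length and scaled to TPM in each library. Spread was the SD of log2(TPM + 1) over genes at a mean of 10 TPM or more. The common dispersion came from edgeR 4.0.16 with an intercept alone. Work was done in R 4.3.3 and Python 3.11.15 with numpy 2.4.6, pandas 2.3.3, scipy 1.17.1 and matplotlib 3.10.9, and the scripts were tested on simulated data. Nuclear counts were 8447077 to 10834905 per library, and limits from counts cover counting error only, since no molecular identifiers are recorded. No groups were compared, because the libraries are 1 group described alone. Gaps of single libraries were held against Dixon's critical value for the closing section.

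The genes named are the 6 markers and Pdgfrb, the 30 genes of highest mean TPM, up to 4 leading members of each of 35 gene lists with members a list is known for, and the 15 genes of largest and 10 of smallest spread at a mean of 20 TPM or more, predicted genes left out of the last. Some genes that this rule names are not reported here. Other genes are said where they occur to have been picked after their values were seen, or are members of a list given for scale. The libraries, members and lists were chosen with earlier results of these data known. Of 547 listed genes, 149 overlap the exons of another gene, 53 of them over at least 10% of their exonic bases, and counts of such genes are uncertain. The alternatives were to leave out each library, to keep chromosome MT genes, to shorten each length by 150 bases without genes under 300 bases, to keep protein-coding genes alone, and to use other ranks, thresholds, pseudocounts and scalings (edgeR TMM, DESeq2 1.42.0 size factors).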

Additional observations from a re-analysis of the deposited data

Results flagged for a closer look

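In 27 of 210 values examined, of lists, named genes and classes, the highest or lowest library lay far from the other 5: its gap to the nearest library, divided by the range of all 6, exceeded Dixon's critical value for 6 samples. If values are normally distributed, chance alone flags about 1 in 20. The values here are TPM and shares without a log, whose shape was not tested, so the rate of chance flags may be higher. The rate of 1 in 20 also does not hold for the genes that were named for their large or small spread, 8 of the 27. Values of the same library are not independent. Stromal 1 was the library apart in 14 of the 27, as the highest in 12 and the lowest in 2.

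Among summed lists, transcription factors of the uterine mesenchyme reached 4663 TPM in Stromal 1 against 3701 to 4053 TPM in the others, and hedgehog and Wnt genes 2094 TPM against 1005 to 1411 TPM. The hedgehog and Wnt sum includes Ptch1, so its flag is not separate from that of Ptch1. Ptch1 was at 410 TPM in Stromal 1, Nid1 at 3333 TPM, F2r (a thrombin receptor) at 205 TPM, Ptges3 (the cochaperone p23) at 181 TPM, Cxcl14 (a chemokine) at 58.1 TPM, Notch3 at 8.27 TPM and Lyz2 at 12.1 TPM, each the highest of 6. Fbn1 at 353 TPM and Mfap5 at 299 TPM, both of elastic fibres, were lowest in Stromal 1. The next lowest libraries were at 595 TPM for Fbn1 and 391 TPM for Mfap5.

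Stromal 6 was the highest library for Hspa5 at 1981 TPM, for Ifitm3 at 556 TPM and for Acta2 at 21.2 TPM. Stromal 2 was the highest for Ssr3 (a subunit of the complex that aids entry of proteins into the endoplasmic reticulum) at 1982 TPM, and for Nedd4 at 1033 TPM, where the others lay between 913 and 956 TPM. Nedd4 is also among the 10 genes of smallest spread, so its gap is small in size. H2-K1 was lowest in Stromal 4, at 279.7 TPM.

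Of the models inside Sdk1, Gm43557 was highest in Stromal 5, at 5199 TPM, and Gm16035 in Stromal 4, at 3897 TPM. Sdk1 and all 7 models inside it were lowest in Stromal 1. The remaining values belong to short RNAs with few counts. In Stromal 1, Rnu12 was at 20.3 TPM, n-R5s159 at 1736 TPM and Mir6361 at 299 TPM. In Stromal 2, Mir1968 was at 217 TPM and Mir6899 at 184 TPM. In Stromal 3, Mir5622 was at 232 TPM and Mir344i at 443 TPM, and in Stromal 5 Mir6394 was at 575 TPM. Rnu12 was at 0 counts in each of the other 5 libraries.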

How the results depend on the processing

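No paired analysis was possible because the results describe 1 group and come from no test. Ranking by counts per gene without division by length kept 12 of the 30 most abundant genes, and the other orderings kept 20 to 30. Asking for 1 TPM in the mean rather than in every library gave 19017 genes against 12604. With chromosome MT genes kept, the 100 most abundant genes held 75.5% of TPM against 23.8%, the fibroblast markers summed to 7205 TPM against 22720 TPM, the pericyte markers to 5.82 TPM against 18.5 TPM, and the shares of counts were 0.391% for ribosomal proteins and 3.05% for collagens, against 0.649% and 5.07%. With protein-coding genes alone the same first 3 values were 22.0%, 31310 TPM and 25.6 TPM. As shares of TPM rather than of counts, ribosomal proteins held 1.96% and collagens 2.60%. The median SD of 0.48 was 0.42 with a pseudocount of 5, 0.69 over genes at a mean of 1 TPM or more and 0.60 with no filter on low values.

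Leaving out each library in turn kept 28 to 30 of the 30 genes, gave 12669 to 13215 genes at 1 TPM in every library, 23.3% to 24.3% of TPM in the 100 most abundant genes, 0.631% to 0.670% for ribosomal proteins, 4.94% to 5.28% for collagens, a median SD of 0.43 (without Stromal 5) to 0.50 (without Stromal 4), and sums of 21934 to 23885 TPM for fibroblast markers and 16.5 to 19.9 TPM for pericyte markers. Among the genes named by the rule at a mean of 10 TPM or more, 13 had a mean that moved by more than 1.5 times when 1 library was left out: Ptch1 and 12 small RNAs, among them n-R5s159, at 331 TPM with and 50.03 TPM without Stromal 1, and Mir6394, at 129 TPM with and 39.3 TPM without Stromal 5. Other genes in the text moved as far: without Stromal 1, Sfrp2 fell from 87.9 to 30.8 TPM, Thbs1 from 88.1 to 55.3, Pappa from 47.6 to 22.1, Ano1 from 36.2 to 9.87, Mgp from 28.5 to 10.6, Wfdc1 from 21.5 to 9.09 and Tnc from 13.9 to 2.64. Sfrp4 fell from 75.1 to 40.5 TPM without Stromal 5. Means under 10 TPM were not followed in this way. Of genes under 300 bases, no TPM at an effective length could be given. The causes were not tested.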
